A study of Mus musculus with 10 samples.

Results

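The 40 genes described here encode the Toll-like receptors, the proteins that load or escort them, their adaptors, the kinases and ubiquitin ligases that carry the signal, and the related NOD and Dectin-1 sensors. They were chosen by symbol, and all 40 were found among the 24454 genes of the count table and passed the filter on low counts. They fell into 5 surface receptors, 7 endosomal receptors, 6 co-receptors and accessory proteins, 4 adaptors, 11 kinases and ligases, 2 transcription factors and 5 genes of the NOD and Dectin-1 branch. In skin of *Zfp36*ΔARE mice 14 of them were lower by more than 2-fold and none was higher by that much. Over all tested genes the shares were 6.64% lower and 1.67% higher. The receptors and their co-receptors made up 12 of the 14. Of the 17 adaptors, kinases, ligases and transcription factors that the receptors share, 16 did not pass that threshold, and neither did most tested genes.

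RNA was sequenced from full-thickness back skin of C57BL/6 mice, from 5 WT and 5 *Zfp36*ΔARE samples. The skin had been treated and held no tumor itself, and the study describes it as adjacent to papillomas. In the study all control mice grew papillomas and *Zfp36*ΔARE mice had a lower tumor burden, so tumor burden went with genotype. The part of tumor burden in the levels below was not tested. The knockin removes an instability motif of the AU-rich kind from the 3′-UTR of the endogenous *Zfp36* gene in all cells that express it, and the controls were littermates. All 10 samples had received 1 dose of 400 nmol DMBA, a mutagen, and then 10 nmol TPA, a phorbol ester that promotes tumors, in applications that went on for 20 weeks, from mice that were 7 weeks old when shaved. Untreated skin was not analysed here, and the labels do not say that each sample came from a separate mouse, so the p-values measure only the spread between these samples, which may be technical. The comparison asks how a raised level of TTP, the protein made from *Zfp36*, goes with the transcripts of innate sensing in chronically stimulated skin.

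Toll-like receptors recognize parts of microbes and of damaged cells, those at the cell surface mainly lipoproteins, lipopolysaccharide and flagellin, and those in endosomes nucleic acids. They signal through *Myd88*, which assembles *Irak4* and *Irak1* with the ligase *Traf6*, or through *Ticam1* (TRIF), which leads to *Tbk1* and interferon regulatory factors. In skin, macrophages and dendritic cells carry most of these receptors, and keratinocytes carry some of them, whereas the adaptors and kinases also serve receptors that most cell types use. TTP binds AU-rich elements in 3′-UTRs and speeds the decay of those mRNAs.

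*Zfp36* itself separated the groups in the direction of the labels. Its normalized count, which is the count scaled by edgeR's TMM factors to the mean library size, was 2051, 2496, 1824, 2377 and 2011 in WT replicates 1 to 5 and 5781, 5202, 5820.0, 6134 and 4196 in *Zfp36*ΔARE replicates 1 to 5 (log2 fold change 1.33, SE 0.12, adjusted p = 0.00195). The libraries held 19595024 to 36419553 counts. Several libraries stood apart in genes outside the 40. A hair shaft score, the mean log2(CPM + 1) of 10 hair keratins, was 2.57 in WT replicate 3 and 5.33 in WT replicate 1, was 7.91 to 8.33 in the other WT libraries, and was 9.10 to 10.4 in *Zfp36*ΔARE skin. *Xist* had 14829 to 28087 counts in all WT libraries and in *Zfp36*ΔARE replicate 1 and 4 to 15 counts in *Zfp36*ΔARE replicates 2 to 5, which alone held more than 1 count of *Ddx3y*, *Eif2s3y*, *Kdm5d* and *Uty* together, so genotype and sex cannot be told apart outside replicate 1.

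Because TTP acts on AU-rich elements, the 3′-UTRs of the 40 genes were read for the core pentamer ATTTA and for the nonamer TTATTTATT, on the sense strand of 1 transcript a gene in GENCODE M21 on GRCm38 (mm10). The nonamer, whose 9 bases include the pentamer, was in 0 of 40 genes, against 7.3% of the 14391 tested genes with an annotated 3′-UTR. The pentamer was in 21 of 40 (52.5%), against 66.3% of the tested genes. Among the 14 genes that were lower by more than 2-fold it was in 5 (35.7%), and their 3′-UTRs had a median length of 402.5 bases, against 1027.5 bases for the other 26 members and 994 bases for the tested genes. The annotated 3′-UTR was only 15 bases in *Clec7a* and 58 in *Tlr8*, and 74 in *Ly96* among the other members. Motifs in longer transcripts of a gene would be missed. A short 3′-UTR also leaves less room for a match, and length was not allowed for in these shares. A stretch around the pentamer is shown for 3 of the 5 lower genes that hold it and for *Myd88*, which holds 1 pentamer and whose groups overlapped. One around the first nonamer of *Tnf* is set beside them because *Tnf* is the best known target of TTP. Capitals mark the motif, with 10 bases on each side, 5′ to 3′ on the strand of the gene.
Tlr7: caaggctttgATTTAtctgcataca
Cd180: aaagaagagcATTTAccacaatcat
Lbp: ctcaataaatATTTAtagaatatca
Myd88: ctgtgtgtgaATTTAtaataaaaag
Tnf: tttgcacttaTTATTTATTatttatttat

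The stretches lie at chrX:167305065-167305089 on the minus strand, chr13:102706689-102706713 on the plus strand, chr2:158332290-158332314 on the plus strand, chr9:119335956-119335980 on the minus strand and chr17:35199689-35199717 on the minus strand. The pentamer begins at base 257 of 407 in the 3′-UTR of *Tlr7*, base 266 of 522 in *Cd180*, base 350 of 902 in *Lbp* and base 951 of 987 in *Myd88*. *Traf6* held the most pentamers of the 40 genes, 11 in 4170 bases, and its level in the 2 groups overlapped. The 3′-UTR of *Tnf* held 8 pentamers and 5 nonamers, and its normalized counts were 60.6 to 79.3 in WT and 42.8 to 96.1 in *Zfp36*ΔARE skin (log2 fold change 0.06, SE 0.20, adjusted p = 0.826). The study also lists *Cxcl2* and *Il23a* as known TTP targets. Both, named after their values were seen, were lower by more than 2-fold (*Cxcl2* log2 fold change -2.70, SE 0.72, adjusted p = 0.0192). The normalized counts of *Cxcl2* were low, 24.3 to 63.5 in WT and 0 to 20.0 in *Zfp36*ΔARE skin. Whether TTP acted on *Tnf*, *Cxcl2* or *Il23a* in these samples was not tested. A pentamer in the sequence is a match of letters and does not show that TTP binds there.

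The promoters were read in the same way, since many of the receptors are genes of myeloid cells. The letters searched were GAGGAAGT, the core site of PU.1, a transcription factor of macrophages and other myeloid cells, and ACTTCCTC, the same site on the other strand. RefSeq promoters on GRCm38.p6, each from 250 bases before to 50 bases after the start, were held for 31 of the 40 genes. The site was in a window of 4 of those 31 (12.9%), against 3.69% of all 27025 genes with a promoter in that table. Of the 31, 9 were lower by more than 2-fold and 2 of these held it (22.2%). It was also in 2 of the 22 that were not (9.09%), *Tlr1* and *Traf3*. These shares were not tested. No promoter was matched for 9 of the 40 genes, namely *Cd14*, *Lbp*, *Ly96*, *Ripk2*, *Tab1*, *Ticam2*, *Tlr4*, *Tlr7* and *Unc93b1*. The 4 promoters are shown because 3 belong to receptors that were lower and 1 to *Traf3*, a ligase whose groups overlapped, with the site in capitals.
Tlr1: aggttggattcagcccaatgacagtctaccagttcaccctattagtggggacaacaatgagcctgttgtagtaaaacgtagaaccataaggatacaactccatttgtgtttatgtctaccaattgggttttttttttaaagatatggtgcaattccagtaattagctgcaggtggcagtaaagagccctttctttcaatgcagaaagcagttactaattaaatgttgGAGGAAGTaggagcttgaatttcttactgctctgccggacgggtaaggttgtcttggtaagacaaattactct
Tlr9: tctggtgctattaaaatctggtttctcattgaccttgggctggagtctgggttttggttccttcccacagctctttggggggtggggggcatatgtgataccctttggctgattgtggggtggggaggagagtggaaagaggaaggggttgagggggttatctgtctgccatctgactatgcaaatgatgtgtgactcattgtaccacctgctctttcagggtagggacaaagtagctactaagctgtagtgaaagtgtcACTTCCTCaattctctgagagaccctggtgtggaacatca
Tlr11: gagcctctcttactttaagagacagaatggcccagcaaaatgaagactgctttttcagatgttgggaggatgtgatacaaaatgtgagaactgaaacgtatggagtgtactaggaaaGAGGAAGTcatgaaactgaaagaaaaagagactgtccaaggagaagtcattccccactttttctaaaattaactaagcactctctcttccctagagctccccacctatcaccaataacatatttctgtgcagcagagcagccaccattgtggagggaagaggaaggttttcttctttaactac
Traf3: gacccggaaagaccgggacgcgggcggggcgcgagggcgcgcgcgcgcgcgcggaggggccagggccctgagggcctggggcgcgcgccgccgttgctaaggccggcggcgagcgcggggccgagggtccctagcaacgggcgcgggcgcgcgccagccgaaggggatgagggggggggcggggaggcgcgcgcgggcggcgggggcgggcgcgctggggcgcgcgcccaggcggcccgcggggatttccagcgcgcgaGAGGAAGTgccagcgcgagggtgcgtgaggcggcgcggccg

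These windows are chr5:64933509-64933808 on the minus strand, chr9:106222348-106222647 on the plus strand, chr14:50357664-50357963 on the plus strand and chr12:111166120-111166419 on the plus strand. The *Tlr9* site reads on the other strand, and that of *Tlr11* lies farther from the start than the other 3. A match does not show that PU.1 binds, and the lack of one in the other windows, among them a second window of *Tlr1* at chr5:64932650-64932949, says only that these letters are not there.

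Each gene was tested with the quasi-likelihood F-test of edgeR, its p was adjusted by Benjamini-Hochberg over 15543 genes, and it was called where the adjusted p was under 0.05 and the fold change over 2. By this rule 14 of the 40 genes were lower, against 6.64% of all tested genes, and 0 were higher, against 1.67%. With the adjusted p alone, 24 of the 40 were lower, against 19.1% of tested genes, and 1 was higher, against 15.3%. Each *Zfp36*ΔARE library lay below each WT library for 17 of the 40 genes, against 11.9% of tested genes, and above for 1 gene, against 11.2%. The median log2 fold change was -0.56 over the 40 genes and 0.01 over all tested genes.

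The roles did not share these numbers evenly. Of the 12 Toll-like receptors 7 were called lower and 11 passed the adjusted p, with a median log2 fold change of -1.07. All 6 co-receptors and accessory proteins passed and 5 were called, with a median of -1.24. Of the 17 adaptors, kinases, ligases and transcription factors 1 was called, the adaptor *Ticam2*, 5 were lower and 1 was higher by the adjusted p, and their median was -0.000588. The plot of fold changes by role shows each gene.

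**Figure D1:**
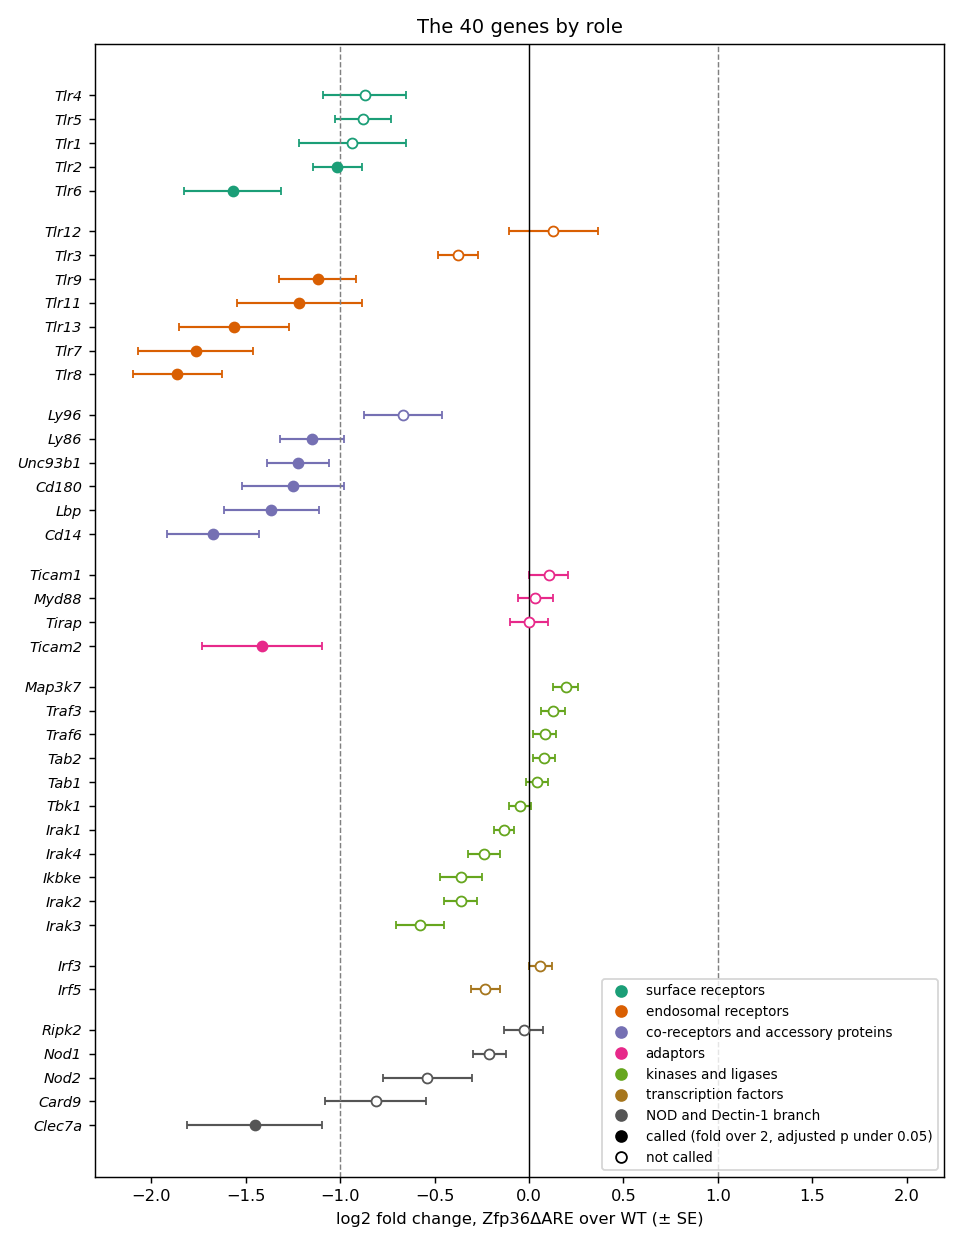
Log2 fold change of *Zfp36*ΔARE over WT skin on the x axis for each of the 40 genes, grouped by role, with bars of 1 SE from edgeR and 5 libraries a group. Filled points passed both thresholds, dashed lines mark 2-fold, and the filled points all lie left of -1 and belong to receptors, co-receptors, *Ticam2* and *Clec7a*.

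These calls depended on which libraries were compared. Without WT replicates 1 and 3, which held little hair shaft RNA, 7 genes remained called, all among the 14 (*Tlr6*, *Tlr7*, *Tlr8*, *Tlr13*, *Cd14*, *Lbp* and *Unc93b1*), and 14 passed the adjusted p. That fit had fewer WT libraries, and whether the 40 genes lost more calls than other genes was not tested. With the hair shaft score as a covariate, whose values did not overlap between the groups, 0 of the 40 genes passed, as only 32 of all tested genes did, and the median over the 12 receptors was -0.81 with all 12 below 0. With *Zfp36*ΔARE replicate 1 as the only knockin library against WT, a fit that assumes this library to vary like the WT group, 0 of the 40 passed and 0 of all genes did, and the median over the 12 receptors was -0.87 with all 12 below 0.

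In RNA of whole skin, fewer cells of a type and less RNA per cell cannot be told apart, and markers of macrophages moved with the receptors. Of 12 macrophage markers 10 were called lower, with a median log2 fold change of -1.33, and each of the 12 had at least 51 counts in every library. The log2 fold changes of the 12 markers ran from -1.89 to 0.28, so not every marker was lower. Their summed normalized counts were 29227 to 54594 in WT and 15271 to 21556 in *Zfp36*ΔARE skin. *Csf1r*, the receptor that macrophages need for survival, ranged from 3038 to 5918 in WT and 1204 to 2149.6 in *Zfp36*ΔARE skin (log2 fold change -1.50, SE 0.22, adjusted p = 0.00446), and *Lyz2*, a lysozyme, fell further (log2 fold change -1.89, SE 0.23, adjusted p = 0.00369). The summed counts of the 12 Toll-like receptors were 2912, 3207, 3249, 2207 and 1939.7 in WT replicates 1 to 5 and 1365, 1053, 1155, 1407 and 1425 in *Zfp36*ΔARE replicates 1 to 5. The receptor sum was also taken as a share of the macrophage marker sum of the same library. This share was 5.33% to 6.64% in WT and 6.53% to 7.91% in *Zfp36*ΔARE skin. It ran higher in *Zfp36*ΔARE skin, and the ranges overlapped only through WT replicate 5 (6.64%) and *Zfp36*ΔARE replicate 4 (6.53%). *Zfp36*ΔARE replicates 1, 2, 3 and 5, at 6.89% to 7.91%, lay above every WT library. The difference in this share was not tested. The receptor sum was then set against the summed counts of *Myd88*, *Irak1*, *Irak4* and *Traf6*. That share was 31.6% to 50.8% in WT and 17.4% to 23.4% in *Zfp36*ΔARE skin, ranges that did not overlap. The part of the macrophage content in the receptor levels was not tested.

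**Figure D2:**
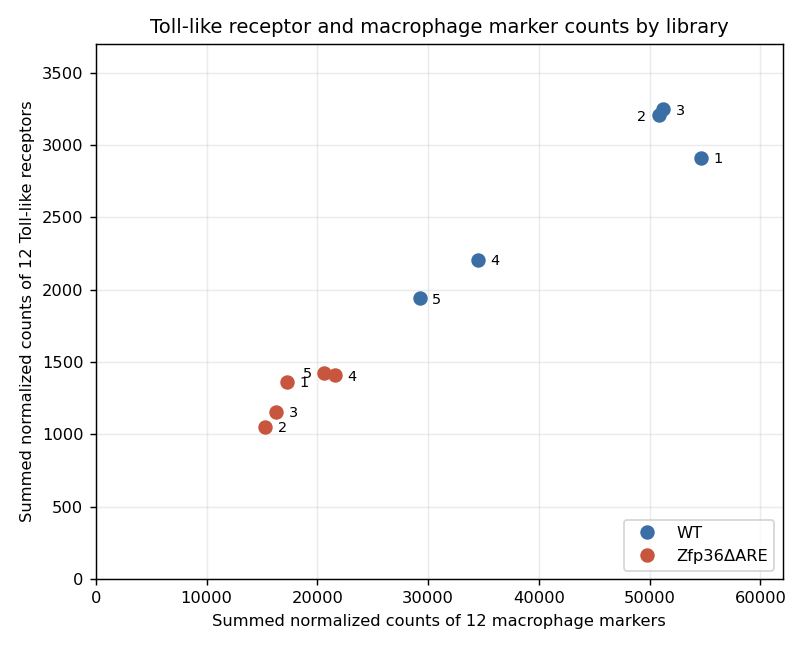
Summed normalized counts of 12 Toll-like receptors (y axis) against those of 12 macrophage markers (x axis), 1 point a library with its replicate number, both axes from 0. The *Zfp36*ΔARE libraries lie at 1053 to 1425 receptor counts and the WT libraries at 1939.7 to 3249, and every WT library lies above every *Zfp36*ΔARE library on both axes.

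The libraries moved in other tissue markers as well. Called lower were 6 of 7 mast cell markers (summed counts 5975 to 15126 in WT and 3309.8 to 4186 in *Zfp36*ΔARE skin), 9 of 10 skeletal muscle markers, 5 of 8 adipocyte markers, 4 of 8 endothelial markers, 1 of 8 fibroblast markers and 1 of 10 dendritic and Langerhans cell markers, and 2 of 10 hair shaft markers were called higher. The remaining mast cell marker went the other way and was higher by the adjusted p (log2 fold change 0.29). Of the 5 neutrophil markers tested *Csf3r* alone was called, lower (log2 fold change -1.39, SE 0.32, adjusted p = 0.0122), and *Ly6g* and *Elane*, named after their values were seen, had fewer than 10 counts in every library. Log2 fold changes of the 5 ran up to 0.81, so the list did not move in 1 direction. The summed counts of all 10 neutrophil markers were 1334 to 5255 in WT and 1150 to 19073 in *Zfp36*ΔARE skin. None of 8 basal keratinocyte, 6 T cell and 2 B cell markers tested was called. Their part in the receptor levels was not tested.

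Among the surface receptors, *Tlr2* pairs with *Tlr1* or *Tlr6* to bind lipoproteins. *Tlr2*, at chr3:83836272-83841767 on the minus strand, had normalized counts of 286, 314, 303, 231 and 219 in WT replicates 1 to 5 and 149, 118, 124, 143 and 135 in *Zfp36*ΔARE replicates 1 to 5 (log2 fold change -1.02, SE 0.13, adjusted p = 0.00369). The groups did not overlap and the difference was close to 2-fold, so that leaving out any of 5 libraries (WT replicates 1, 2 and 3 and *Zfp36*ΔARE replicates 2 and 3) took it to between -0.996 and -0.955, just short of the fold threshold. *Tlr6*, at chr5:64952031-64960097 on the minus strand, was scarcer, with 72.8, 64.6, 78.1, 42.7 and 42.3 in WT and 18.7, 15.4, 18.7, 18.7 and 30.3 in *Zfp36*ΔARE skin (log2 fold change -1.57, SE 0.26, adjusted p = 0.00526). Again no library overlapped, and the highest *Zfp36*ΔARE value was that of replicate 5. *Tlr1* lies 18.5 kb from *Tlr6* on chromosome 5, and their near-identical stretches could share reads, which leaves the split of counts between them uncertain. Its counts overlapped (81.5 to 166 in WT and 32.9 to 84.1 in *Zfp36*ΔARE skin, log2 fold change -0.94, SE 0.28, adjusted p = 0.0289), and its adjusted p rose to 0.0596 to 0.0697 without WT replicate 2 or without *Zfp36*ΔARE replicate 2 or 3.

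*Tlr4*, the receptor for lipopolysaccharide, and *Tlr5*, the receptor for flagellin, were lower by less than 2-fold. *Tlr4* counts were 452, 510.5, 495, 385 and 235 in WT and 297, 169, 198, 256 and 216 in *Zfp36*ΔARE skin (log2 fold change -0.87, SE 0.22, adjusted p = 0.0156). WT replicate 5 lay within the *Zfp36*ΔARE range, and without it the log2 fold change was -1.02. *Tlr5* counts were 276 to 434 in WT and 169 to 223 in *Zfp36*ΔARE skin without overlap (log2 fold change -0.88, SE 0.15, adjusted p = 0.00531).

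The endosomal receptors *Tlr8* and *Tlr7* had the 2 largest differences of the 40 genes, while *Tlr3* and *Tlr12* of the same group were among the smaller ones. *Tlr8*, a receptor for single-stranded RNA at chrX:167242696-167264329 on the minus strand, had 491, 527, 450.3, 293 and 241 counts in WT and 112, 84.2, 94.4, 143 and 120.0 in *Zfp36*ΔARE skin (log2 fold change -1.86, SE 0.24, adjusted p = 0.00369). *Tlr7*, which binds the same kind of RNA and lies 40.6 kb away at chrX:167304929-167330558 on the minus strand, had 309, 439, 365, 238 and 186 in WT and 80.9, 53.4, 74.7, 93.5 and 153 in *Zfp36*ΔARE skin (log2 fold change -1.77, SE 0.30, adjusted p = 0.00556). *Tlr13*, a receptor for bacterial ribosomal RNA at chrX:106143204-106160493 on the plus strand, had 286, 296, 295, 169.8 and 158 in WT and 54, 48.9, 87.8, 113 and 108 in *Zfp36*ΔARE skin (log2 fold change -1.56, SE 0.29, adjusted p = 0.00698). In all 3 genes every *Zfp36*ΔARE library was below every WT library, and WT replicates 4 and 5, which also had the lowest macrophage marker sums of the WT libraries, were the lowest of their group. The 3 genes lie on chromosome X, as does *Irak1*. The value of *Zfp36*ΔARE replicate 1, the knockin library with *Xist*, lay within the range of replicates 2 to 5 for all 4 genes. It did so for 24 of the 40 genes, and 1 library cannot separate sex from genotype.

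*Tlr9*, the receptor for CpG DNA at chr9:106222598-106226883 on the plus strand, had counts of 92.9 to 151 in WT and 34 to 62.2 in *Zfp36*ΔARE skin (log2 fold change -1.12, SE 0.20, adjusted p = 0.00659), without overlap, and the fold change fell just short of 2-fold without *Zfp36*ΔARE replicate 3 (log2 -0.998). *Tlr11* and *Tlr12* recognize profilin of protozoa. *Tlr11* counts were 63.5, 54.9, 135, 49.5 and 53.7 in WT and 39, 18.1, 25.3, 36 and 34.3 in *Zfp36*ΔARE skin (log2 fold change -1.22, SE 0.33, adjusted p = 0.0201). WT replicate 3 was far above the rest, and without it the log2 fold change was -0.86, past the adjusted p but not past 2-fold. *Tlr12* was the scarcest of the 40 genes, with 12.9, 13.7, 11, 10.7 and 18.6 in WT and 11.2, 14.5, 16.5, 18.7 and 13.2 in *Zfp36*ΔARE skin, and its groups overlapped (log2 fold change 0.13, SE 0.23, adjusted p = 0.753).

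*Tlr3*, the receptor for double-stranded RNA, which signals through *Ticam1* and not *Myd88*, differed least among the receptors that passed. Its counts were 346, 340.1, 422, 324 and 323 in WT and 307, 266, 280.0, 228 and 270.3 in *Zfp36*ΔARE skin (log2 fold change -0.37, SE 0.11, adjusted p = 0.023). The groups did not overlap, but the adjusted p was 0.053 without *Zfp36*ΔARE replicate 2. An antisense gene covers 381 bases of its exons, and whether strand was used in counting was not stated in the sources used here.

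**Figure D3:**
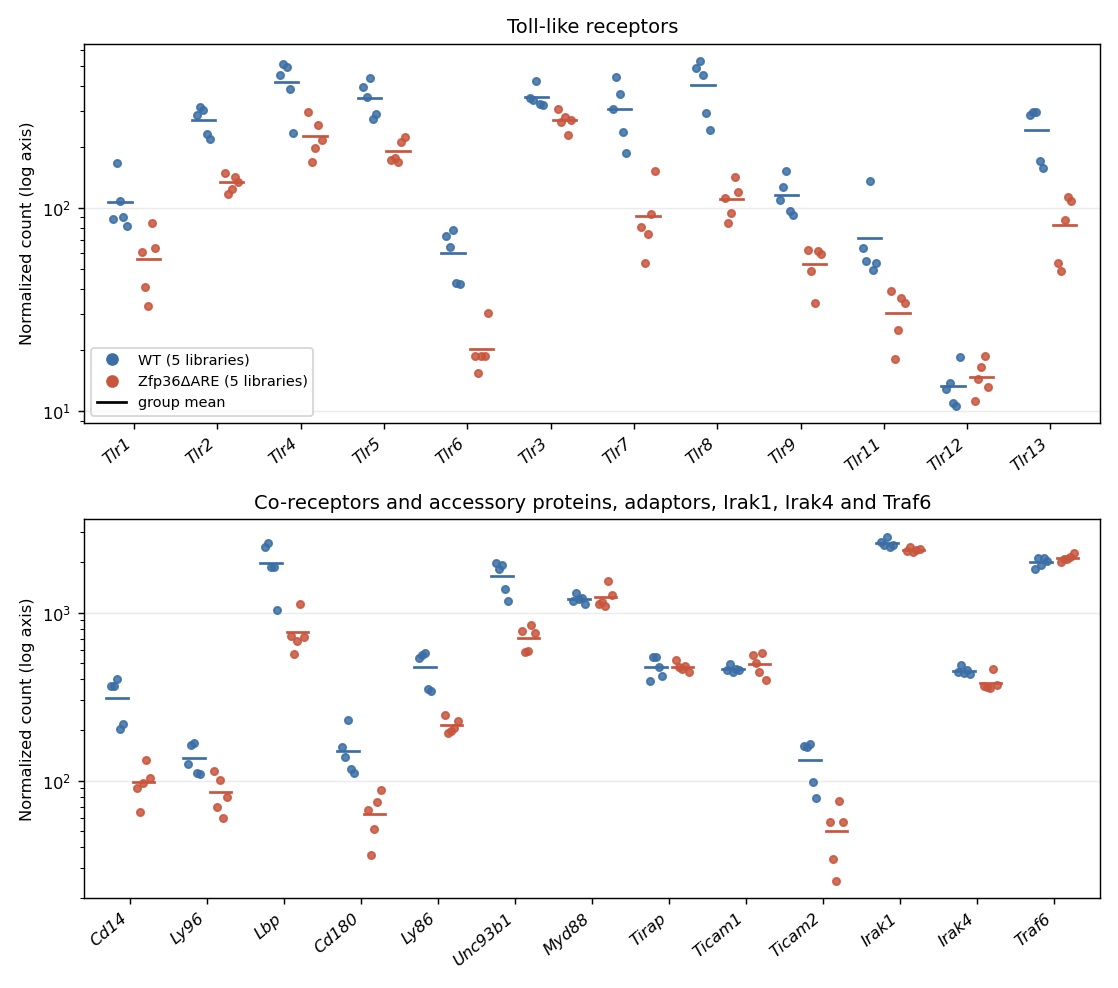
Normalized counts of each library on a log axis for the 12 Toll-like receptors (top) and for co-receptors, adaptors, *Irak1*, *Irak4* and *Traf6* (bottom), with points for 5 WT and 5 *Zfp36*ΔARE libraries and lines at the group means. *Tlr7*, *Tlr8*, *Cd14* and *Unc93b1* separate by group without overlap, whereas *Myd88*, *Tirap*, *Ticam1* and *Traf6* overlap.

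Among the co-receptors, *Cd14*, which hands lipopolysaccharide to the *Tlr4* complex and lies at chr18:36725067-36726798 on the minus strand, had 364, 364, 404, 203 and 217 counts in WT and 89.9, 65.2, 96.6, 132 and 104 in *Zfp36*ΔARE skin (log2 fold change -1.68, SE 0.24, adjusted p = 0.00422). *Lbp*, the secreted protein that brings lipopolysaccharide to *Cd14*, lies at chr2:158306493-158332852 on the plus strand and had 2469, 2578, 1867, 1861 and 1036 in WT and 725, 565, 681, 1131 and 715 in *Zfp36*ΔARE skin (log2 fold change -1.36, SE 0.25, adjusted p = 0.00698). *Cd14* separated without overlap, while for *Lbp* the highest *Zfp36*ΔARE library, replicate 4, lay above the lowest WT library, replicate 5. *Ly96* (MD-2), the subunit of *Tlr4* that holds the lipid, was lower by less than 2-fold (109 to 168 in WT and 60.1 to 115 in *Zfp36*ΔARE skin, log2 fold change -0.67, SE 0.21, adjusted p = 0.0324). Its adjusted p rose above 0.05, to between 0.0552 and 0.0766, without any of WT replicates 1, 2 and 3 or *Zfp36*ΔARE replicates 2, 4 and 5.

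*Unc93b1*, the chaperone that carries the endosomal receptors from the endoplasmic reticulum, lies at chr19:3935186-3949340 on the plus strand. Its counts were 1966, 1829, 1930.4, 1381 and 1176 in WT and 779, 584, 589, 841 and 752 in *Zfp36*ΔARE skin (log2 fold change -1.23, SE 0.16, adjusted p = 0.004). No library overlapped, and without WT replicates 1 and 3 it remained called (log2 -1.05, adjusted p = 0.00792). *Cd180* and *Ly86* (MD-1), which form a receptor complex related to *Tlr4* and its subunit, were lower together, *Cd180* at 110.4 to 229 in WT and 36.2 to 88.3 in *Zfp36*ΔARE skin (log2 fold change -1.25, SE 0.27, adjusted p = 0.00966) and *Ly86* at 344 to 577 in WT and 191 to 247 in *Zfp36*ΔARE skin (log2 fold change -1.15, SE 0.17, adjusted p = 0.00436). On the opposite strand, exons of *Mast4* cover 182 bases of the exons of *Cd180*.

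The adaptors split. *Myd88*, the adaptor of nearly all Toll-like receptors and of the interleukin-1 receptors, at chr9:119335934-119341411 on the minus strand, had 1169.6, 1309, 1208, 1229 and 1129.8 counts in WT and 1129, 1159.7, 1099, 1533 and 1274 in *Zfp36*ΔARE skin (log2 fold change 0.03, SE 0.09, adjusted p = 0.791). *Tirap*, which brings *Myd88* to the membrane, and *Ticam1* overlapped as well (log2 fold changes -0.00 ± 0.10 and 0.10 ± 0.10, adjusted p = 0.997 and 0.445). *Ticam2* (TRAM), which links *Tlr4* to *Ticam1*, was the exception. Its counts were 160.2, 159, 166, 98 and 78.4 in WT and 57, 34.4, 25.3, 76.1 and 56.7 in *Zfp36*ΔARE skin, without overlap (log2 fold change -1.41, SE 0.32, adjusted p = 0.0109). Exons of *Tmed7* on the same strand cover 838 bases of the exons of *Ticam2*, so counts of the 2 genes may not be fully separate, and without WT replicates 1 and 3 the adjusted p was 0.0508.

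Of the 11 kinases and ligases 0 were called, 3 were lower by the adjusted p and 1 was higher. Over all tested genes 6.64% were called lower and 1.67% higher, so 0 of 11 is near those shares. *Irak4* and *Irak1*, the kinases of the *Myd88* complex, had log2 fold changes of -0.24 ± 0.09 and -0.13 ± 0.05 (adjusted p = 0.0529 and 0.0657), and *Irak1* counts were 2635, 2529, 2831, 2453 and 2533 in WT and 2332, 2453, 2296, 2357 and 2393 in *Zfp36*ΔARE skin. Without *Zfp36*ΔARE replicate 4, *Irak4* passed (log2 -0.32, adjusted p = 0.0136). *Irak3* (IRAK-M), a brake on the pathway that macrophages carry, differed most of the 11, with 1061, 1128, 1037, 951 and 849 in WT and 635, 631, 515, 833 and 763 in *Zfp36*ΔARE skin (log2 fold change -0.58, SE 0.13, adjusted p = 0.0106). *Irak2*, which sustains the signal, was lower too (596 to 829.8 in WT and 514 to 572 in *Zfp36*ΔARE skin, log2 fold change -0.36, SE 0.09, adjusted p = 0.0141). Both separated without overlap.

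The ligases *Traf6* and *Traf3* had log2 fold changes of 0.08 ± 0.06 and 0.13 ± 0.07 (adjusted p = 0.294 and 0.15). *Map3k7* (TAK1), the kinase that *Traf6* activates, was the 1 gene of the 40 that was higher, with 2577, 3059.7, 2405, 2941 and 2757 in WT and 3133, 3111, 3090.1, 3216 and 3169 in *Zfp36*ΔARE skin (log2 fold change 0.19, SE 0.07, adjusted p = 0.0467). The difference was 1.14-fold, and the adjusted p was 0.0722 to 0.102 without any library but WT replicates 2 and 4. Its partners *Tab1* and *Tab2* had log2 fold changes of 0.04 ± 0.06 and 0.08 ± 0.06 (adjusted p = 0.585 and 0.297).

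*Tbk1* and *Ikbke* are related kinases that activate interferon regulatory factors. *Tbk1* overlapped between the groups (log2 fold change -0.05, SE 0.06, adjusted p = 0.515). *Ikbke*, with counts of 859.9 to 1241 in WT and 659 to 832 in *Zfp36*ΔARE skin, was lower (log2 fold change -0.36, SE 0.11, adjusted p = 0.0307), and its adjusted p was 0.0559 to 0.0682 without WT replicate 1 or any of *Zfp36*ΔARE replicates 1, 2 and 3. *Irf3*, the factor that *Tbk1* activates, overlapped (log2 fold change 0.06, SE 0.06, adjusted p = 0.463). *Irf5*, a factor of myeloid cells that acts after *Myd88*, had counts of 819 to 937 in WT and 640.2 to 842 in *Zfp36*ΔARE skin (log2 fold change -0.23, SE 0.08, adjusted p = 0.0395), and its adjusted p was 0.0521 to 0.0888 when any of 7 libraries was left out (WT replicates 1 to 4 and *Zfp36*ΔARE replicates 2 to 4).

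In the NOD and Dectin-1 branch, *Clec7a* (Dectin-1), the receptor for fungal glucans at chr6:129461591-129472779 on the minus strand, had 381, 366, 505, 211 and 277 counts in WT and 119.9, 61.6, 72.5, 218 and 169 in *Zfp36*ΔARE skin (log2 fold change -1.45, SE 0.36, adjusted p = 0.0147). *Zfp36*ΔARE replicate 4 lay above WT replicate 4, so the groups overlapped. GENCODE M21 lists the gene as a polymorphic pseudogene, and without WT replicates 1 and 3 its adjusted p was 0.0776. *Card9*, the adaptor through which *Clec7a* signals, was lower by less than 2-fold (129 to 202 in WT and 56.1 to 143 in *Zfp36*ΔARE skin, log2 fold change -0.81, SE 0.27, adjusted p = 0.0384), and passed without WT replicate 4 or *Zfp36*ΔARE replicate 4 or 5 but not without any of the other 7 libraries (adjusted p = 0.0510 to 0.0860). *Nod1* and *Nod2*, cytosolic sensors of peptidoglycan, had log2 fold changes of -0.21 ± 0.09 and -0.54 ± 0.24 (adjusted p = 0.0816 and 0.0962). Without *Zfp36*ΔARE replicate 4, whose *Nod2* count of 457 was the highest of its group, *Nod2* passed (log2 -0.77, adjusted p = 0.0197), and *Nod1* passed without WT replicate 4 (log2 -0.25, adjusted p = 0.0496). Their shared kinase *Ripk2* overlapped (log2 fold change -0.03, SE 0.10, adjusted p = 0.848).

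To compare receptors with the proteins they work with directly, the log2 ratio of CPM + 0.5 was taken for 17 pairs within each library, where the library's scaling largely cancels. The ratio differed between genotypes in 6 of the 17 pairs by exact two-sided permutation tests with Benjamini-Hochberg adjustment over the pairs. For 5 libraries against 5 the smallest p such a test can give is 0.00794, and 5 of the 6 pairs reached it (adjusted p = 0.027). *Tlr2* over *Myd88* differed most, at -2.12 ± 0.19 in WT and -3.08 ± 0.18 in *Zfp36*ΔARE skin (mean ± SD of 5 libraries, difference -0.97, SE 0.12, exact p = 0.00794, adjusted p = 0.027). *Clec7a* over *Card9* was 0.95 ± 0.25 in WT and 0.31 ± 0.17 in *Zfp36*ΔARE skin (difference -0.64, SE 0.14), and *Tlr3* over *Ticam1* was -0.39 ± 0.18 in WT and -0.84 ± 0.29 in *Zfp36*ΔARE skin (difference -0.45, SE 0.15). In these 3 pairs the receptor was lower against its signaling partner. In whole skin the genes of a pair can come from different cell types, so these ratios do not compare them within a cell. The part of cell content in the ratios was not tested.

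Pairs of receptors with their co-receptors showed both patterns. *Tlr4* over *Cd14* was higher in *Zfp36*ΔARE skin, at 0.41 ± 0.29 in WT and 1.12 ± 0.29 in *Zfp36*ΔARE skin (difference 0.71, SE 0.18), with the highest WT ratio at 0.88 and the lowest *Zfp36*ΔARE ratio at 0.89. *Tlr8* over *Unc93b1* was lower, at -2.04 ± 0.18 in WT and -2.55 ± 0.09 in *Zfp36*ΔARE skin (difference -0.50, SE 0.09). *Irak3* over *Irak1*, a brake against the kinase it opposes, was -1.36 ± 0.15 in WT and -1.81 ± 0.25 in *Zfp36*ΔARE skin (difference -0.45, SE 0.13, exact p = 0.0159, adjusted p = 0.045). The other 11 pairs did not pass. *Cd180* over its subunit *Ly86* differed by -0.02, SE 0.18 (exact p = 0.952, adjusted p = 0.952), *Tlr6* over *Tlr2* by -0.17, SE 0.13 (exact p = 0.206, adjusted p = 0.27) and *Tlr4* over *Ly96* by -0.20, SE 0.21 (exact p = 0.341, adjusted p = 0.405). For *Tlr7*, *Tlr9* and *Tlr13* over *Unc93b1* the differences were -0.43, 0.24 and -0.22 (exact adjusted p = 0.11, 0.11 and 0.405). Pairs with a scarce gene moved with the pseudocount. With none, the difference was -0.55 for *Tlr6* over *Tlr2* (exact p = 0.0317, adjusted p = 0.0675), -0.14 for *Cd180* over *Ly86*, 0.08 for *Tlr9* over *Unc93b1* and -0.36 for *Tlr13* over *Unc93b1*, none of which passed. With WT replicate 5 or *Zfp36*ΔARE replicate 4 left out the same 6 pairs passed, and without *Zfp36*ΔARE replicate 5 *Tlr7* over *Unc93b1* passed in place of *Irak3* over *Irak1* (exact adjusted p = 0.045 and 0.0675). With any of the other 7 libraries left out 0 passed, where the smallest p for 4 libraries against 5 is 0.0159. Without WT replicates 1 and 3 together the smallest p is 0.0357, and the 5 pairs at the smallest p before were at it again, with differences of -0.86 for *Tlr2* over *Myd88*, -0.55 for *Clec7a* over *Card9*, -0.34 for *Tlr3* over *Ticam1*, 0.63 for *Tlr4* over *Cd14* and -0.49 for *Tlr8* over *Unc93b1* (exact adjusted p = 0.121).

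**Figure D4:**
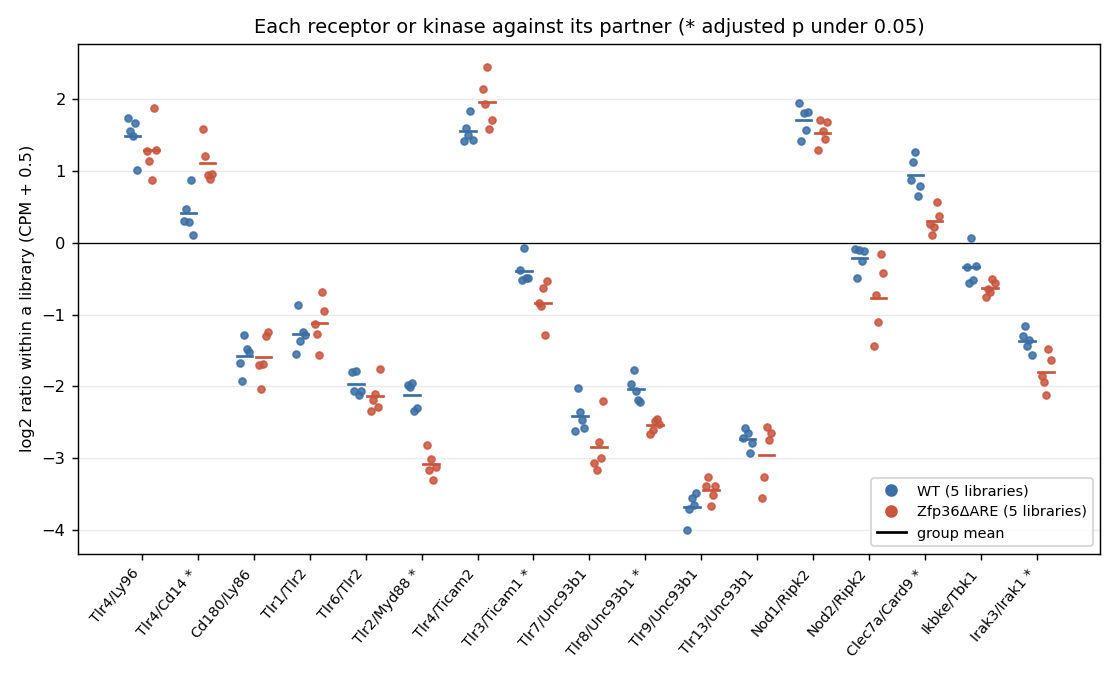
Log2 ratio of CPM + 0.5 of the first gene over the second within each library (y axis) for 17 pairs (x axis), with points for 5 WT and 5 *Zfp36*ΔARE libraries, lines at the group means and a star where the adjusted p was under 0.05. *Tlr2*/*Myd88* shows the widest gap between the groups, -2.12 against -3.08, and *Cd180*/*Ly86* lies at -1.58 and -1.60.

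Levels between genes were set side by side as CPM per kilobase of the gene's exons, using the lengths in the deposited table. In WT skin the 12 receptors ranged from 0.158 (*Tlr12*) to 4.10 (*Tlr5*), below *Myd88* at 23.8 ± 1.33 in WT and 24.4 ± 3.49 in *Zfp36*ΔARE skin (mean ± SD of 5 libraries) and below *Irak1* at 24.6 ± 1.39 in WT and 22.4 ± 0.571 in *Zfp36*ΔARE skin. *Tab2* had the highest level of the 40 genes in WT, 41.9 ± 2.70, followed by *Irf3* at 30.7 ± 1.51. *Tlr5*, *Tlr2* and *Tlr3* led the receptors in WT, at 4.1 ± 0.80, 3.55 ± 0.56 and 3.04 ± 0.35, and *Tlr3* and *Tlr8*, at 2.98 ± 0.94, did not differ beyond their spread. In *Zfp36*ΔARE skin *Tlr3* led with 2.34 ± 0.25, ahead of *Tlr5* at 2.23 ± 0.29 by less than their spread, then *Tlr2* at 1.75 ± 0.17, and *Tlr8* was at 0.822 ± 0.17. *Unc93b1* and *Lbp* were the most abundant of the called genes, *Unc93b1* at 27.4 ± 5.89 in WT and 11.7 ± 1.93 in *Zfp36*ΔARE skin and *Lbp* at 29.1 ± 9.13 in WT and 11.3 ± 3.19 in *Zfp36*ΔARE skin.

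**Figure D5:**
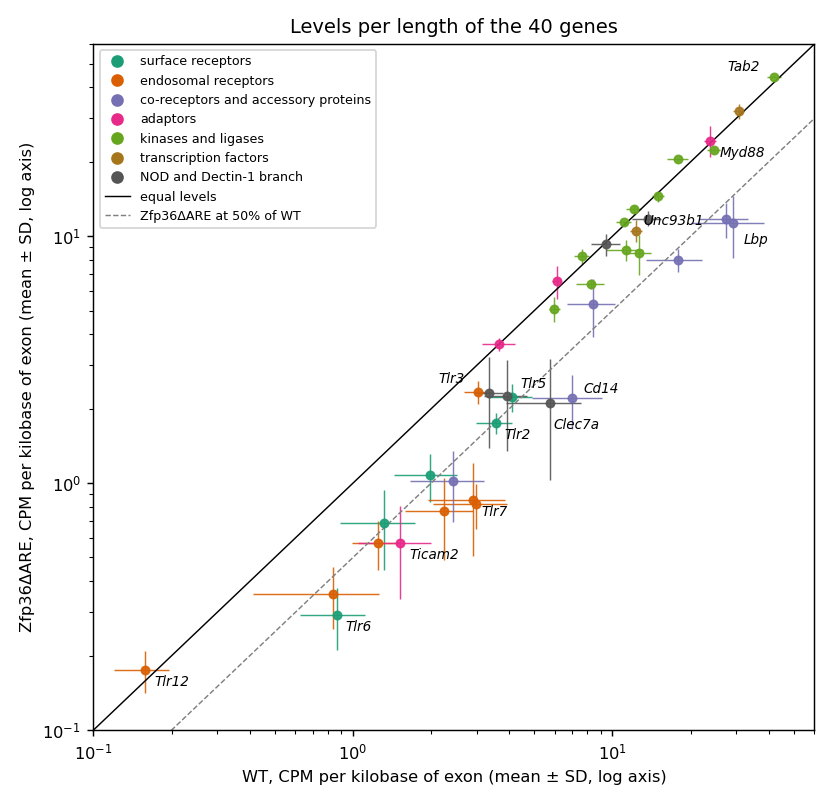
Mean CPM per kilobase of exon ± SD of the 40 genes in *Zfp36*ΔARE skin (y axis) against WT skin (x axis), both on log axes, colored by role, with a line of equal levels and a dashed line at 50% of WT. *Tab2*, *Myd88* and *Irf3* lie close to the line of equal levels at high values, and the receptors and co-receptors lie near or under the dashed line, apart from *Tlr12* and *Tlr3*.

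The steps around the receptors were followed with lists of other pathway genes. Of 8 NF-κB and IKK subunits 0 were called and 2 were lower by the adjusted p (median log2 fold change -0.10), and *Nfkb1*, the precursor of p50, had -0.22 ± 0.08 (adjusted p = 0.0588). Of 11 MAP kinases 0 were called, 1 was lower and 1 was higher, *Map2k3*, which activates p38 (log2 fold change 0.40, SE 0.09, adjusted p = 0.00949). Of 13 negative regulators 0 were called, 3 were lower and 2 higher, among them *Nfkbia*, the inhibitor that NF-κB itself induces (log2 fold change -0.49, SE 0.09, adjusted p = 0.00744), and *Peli1* (log2 fold change 0.28, SE 0.08, adjusted p = 0.027). Of 9 RNA and DNA sensing genes tested 0 were called and 2 were lower, the mitochondrial adaptor *Mavs* (log2 fold change -0.24, SE 0.07, adjusted p = 0.0228) and *Tmem173* (STING), which was chosen after its values were seen (log2 fold change -0.50, SE 0.15, adjusted p = 0.027). The medians of these 4 lists lay between -0.10 and 0.04, as did that of the 11 kinases and ligases. Over all tested genes 6.64% were called lower and 1.67% higher, and 19.1% and 15.3% passed the adjusted p lower and higher. In lists this short 0 called is near those shares and is not a result about these pathways.

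A list with myeloid genes differed more. In the C-type lectin and *Syk* branch 5 of 10 were called lower, namely *Fcer1g* and the lectins *Clec4a2*, *Clec12a*, *Clec4d* and *Clec4e* (log2 fold changes -1.31 to -2.68), all of which were named after their values were seen. *Syk*, the kinase that *Clec7a* uses, was not among them (log2 fold change -0.18, SE 0.10, adjusted p = 0.172). Of 11 genes of receptor trafficking and processing tested 2 were called lower, against 6.64% of all tested genes. They were the protease *Ctss* (log2 fold change -1.29, SE 0.27, adjusted p = 0.00896) and the transporter *Slc15a3* (log2 fold change -1.04, SE 0.28, adjusted p = 0.0186), again chosen after their values were seen. By the adjusted p 3 of the 11 were lower and 2 higher, with a median log2 fold change of 0.005, so this list did not move in 1 direction. *Cnpy4*, also named after its values were seen, was higher without overlap (log2 fold change 0.62, SE 0.16, adjusted p = 0.0158). *Ctsb* and *Ctsl*, other proteases of the endosome, and the chaperone *Hsp90b1* did not pass (log2 fold changes 0.22 ± 0.16, 0.22 ± 0.20 and 0.16 ± 0.11).

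Among 14 inducible cytokine targets tested 5 were called lower, *Il1b* (log2 fold change -1.17, SE 0.37, adjusted p = 0.0342), the chemokines *Cxcl2*, *Cxcl3* and *Ccl3*, and *Il23a*, of which all but *Il1b* were chosen after their values were seen. Of the others, *Il1a*, *Cxcl10* and *Tnf* had log2 fold changes of -0.44 ± 0.16, 0.54 ± 0.35 and 0.06 ± 0.20 (adjusted p = 0.0505, 0.243 and 0.826). *Ifnb1* and *Ifna1* had fewer than 10 counts in every library, and *Il6* and *Il12a* also missed the filter, and these 4 too were named after their values were seen. Of 8 endogenous ligands of the receptors *Fn1*, fibronectin, was called lower (log2 fold change -1.02, SE 0.17, adjusted p = 0.00526), *Bgn*, biglycan, was lower by less than 2-fold (log2 fold change -0.46, SE 0.11, adjusted p = 0.0149), and *Hspd1*, a mitochondrial chaperone, was higher (log2 fold change 0.29, SE 0.09, adjusted p = 0.0334).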

How the data were processed

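Per the labels and the methods of the study, the authors filtered reads by quality, used STAR 2.5.2b to align them to mm10, summed them over genes by featureCounts (Subread 1.5.0-p1), and deposited raw counts with a gene length for 24454 genes in 10 libraries. How fragments that match several genes, or either strand, were counted is not given in the sources used here. Rows with no gene name numbered 2, held 7.38e-05% of the counts and were left out.

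TMM factors were computed with edgeR 4.0.16 (R 4.3.3), which kept 15543 genes by filterByExpr and fitted the robust quasi-likelihood model with genotype as the only term. Adjusted p-values are Benjamini-Hochberg over those genes, and the SE is the log2 fold change over the root of F. Ratios and permutation tests used Python 3.11.15 and SciPy 1.17.1. The fit was tested on simulated counts with known changes. The alternatives were DESeq2 1.42.0, limma-voom (limma 3.58.1), other scalings and filters, a replicate block, a hair shaft covariate, and libraries left out.

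The members, gene lists and tests were chosen with earlier results of these data known. Genes named are the 40 members, up to 4 genes with the most counts of each other list, *Zfp36* and markers of sex, and genes outside this rule are marked in the text as chosen or named after their values were seen. Medians and counts over the members carry no test.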

Additional observations from a re-analysis of the deposited data

Results flagged for a closer look

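In 80 groups of 5 values, 1 for each of the 40 genes in each genotype, the highest or lowest library was set against the others by the gap to its nearest neighbor as a share of the group's range (Dixon's criterion). Chance alone would pick about 4 such groups, and 7 were found. In WT replicate 3, 3 genes stood high, *Tlr3* with 422 normalized counts (the next WT library had 346), *Tlr11* with 135 (next 63.5) and *Ikbke* with 1241 (next 944). This was the WT library with the lowest hair shaft score, 2.57. In *Zfp36*ΔARE replicate 4, *Lbp* with 1131 counts (next 725) and *Irak4* with 459 (next 373) stood high. *Tlr6* in *Zfp36*ΔARE replicate 5 had 30.3 counts (next 18.7). *Tab1* in *Zfp36*ΔARE replicate 1 had 869 counts and stood low, though its group reached only 899. The values without these libraries are given beside *Tlr11* and *Irak4*.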

How the results depend on the processing

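The 14 calls were shared in full by other tests (DESeq2, limma-voom), other scalings (upper quartile, the size factors of DESeq2), other filters (none, or 10 counts in each library) and dispersions that were not robust, with 24 to 27 of the 40 genes past the adjusted p. Same-numbered libraries deviated with correlations of -0.192 to 0.0851 and none correlated best with its own number, so they shared only a number. With a replicate block 12 were called and 16 passed. Leaving out 1 library at a time gave 12 to 16 called and 18 to 25 passing. Without WT replicates 1 and 3 together 7 were called and 14 passed. With the hair shaft score as a covariate 0 were called and 0 passed, and with *Zfp36*ΔARE replicate 1 only against WT 0 and 0. Of the 17 ratios 6 passed with a pseudocount of 0.1 or none, 0 without WT replicates 1 and 3 (where no exact p can go below 0.0357), 0 with the replicate block (sign flips of 5 pairs cannot go below 0.0625), and 0 to 6 with 1 library left out. The cause of these losses was not tested, apart from the smallest p that each exact test allows. Of the 25 members past the adjusted p none changed sign under the alternatives run, and 6 members near 0 did. *Tirap* was 0.00637 with DESeq2, 0.0200 with limma-voom, 0.00159 with DESeq2's size factors, 0.00855 with the block, 0.0605 with the hair covariate, 0.13 with *Zfp36*ΔARE replicate 1 only, and -0.0620 to 0.0519 with 1 library left out. *Myd88* was -0.00043 with upper-quartile scaling, -0.10 with *Zfp36*ΔARE replicate 1 only and -0.0556 to 0.0698 with 1 left out. *Tlr12* was -0.0802 and -0.25, and *Ripk2* 0.0423 and 0.15, with the hair covariate and with replicate 1 only. *Ripk2* was -0.0874 to 0.0188 with 1 left out, and *Tab1* was -0.0468 and *Irf3* -0.0168 with the hair covariate. Depth limited *Tlr12* most, whose raw counts were 9 to 18.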
